A study of Homo sapiens with 6 samples.

Results

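Inflammation-induced miRNAs were followed in A549 cells 48 h after restoration of SMARCA4. The set was defined by name, as the entries of the deposited miRNA table among hsa-miR-146a-5p, hsa-miR-146b-5p, hsa-miR-155-5p, hsa-miR-132-3p, hsa-miR-212-3p, hsa-miR-9-5p, hsa-miR-147b and hsa-miR-187-3p. Of these 8 names, 7 were listed among the 787 mature miRNAs of the table, and miR-187-3p was not listed in it. The SMARCA4 group held 3 small RNA libraries of A549 cells transfected with pcDNA4-SMARCA4, and the empty vector group held 3 libraries of A549 cells transfected with pcDNA4 alone. A549 is an established line derived from a human lung adenocarcinoma, and SMARCA4 (BRG1) is an ATPase subunit of the SWI/SNF chromatin remodelling complex, expressed here from a transiently delivered plasmid in 1 cell line. The level of SMARCA4 itself was not analysed here and did not serve as a check of the labels.

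These miRNAs are known from the response of many cell types to bacterial products and cytokines. Toll-like receptors and cytokine receptors activate NF-kB and related factors, which raise transcription of several of the primary transcripts. The mature miRNAs then pair, mainly through the seed near their 5′ end, with target mRNAs, among them mRNAs of the signalling proteins themselves. miR-146a and miR-146b repress the adaptors IRAK1 and TRAF6 and so dampen the signal, whereas miR-155 represses the inhibitors SOCS1 and INPP5D and so prolongs it.

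The mature sequences show which of these miRNAs can share targets through a common seed. They are given 5′ to 3′ in RNA letters from RefSeq (GRCh38.p14), with bases 2 to 8, the seed, in capitals.
hsa-miR-146a-5p: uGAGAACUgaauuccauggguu
hsa-miR-146b-5p: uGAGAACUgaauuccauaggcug
hsa-miR-132-3p: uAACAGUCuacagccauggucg
hsa-miR-212-3p: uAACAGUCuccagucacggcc
hsa-miR-155-5p: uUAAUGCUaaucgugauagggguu
hsa-miR-9-5p: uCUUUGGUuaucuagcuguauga
hsa-miR-147b: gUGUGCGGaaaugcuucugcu
miR-146a-5p and miR-146b-5p have the same seed, as do miR-132-3p and miR-212-3p, and the other 3 have seeds of their own. Counted from 1 at the 5′ end, miR-146b-5p differs from miR-146a-5p by G18A and U21C and is 1 base longer. miR-212-3p differs from miR-132-3p by A10C, C14U, U17C and U20C and is 1 base shorter. Among the 690 listed names that matched a RefSeq mature sequence, no further miRNA carried any of these 5 seeds. The table gives miR-147b without an arm, and the sequence shown is that of miR-147b-3p in RefSeq.

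The hairpins lie on several chromosomes of GRCh38. MIR146A (chromosome 5, 160485352 to 160485450) lies in an exon of the lincRNA gene MIR3142HG, and MIR155 (chromosome 21, 25573980 to 25574044) in an exon of the lincRNA gene MIR155HG, in GENCODE 29. MIR147B (chromosome 15, 45433050 to 45433129) lies in a UTR of C15orf48, a gene that is itself induced in inflammation. MIR132 (chromosome 17, 2049908 to 2050008) and MIR212 (chromosome 17, 2050271 to 2050380) are neighbours on the minus strand, with 339 bases between their 3p arms. Neither of these, nor MIR146B (chromosome 10, 102436512 to 102436584), lies inside another annotated gene. miR-9-5p is made from 3 hairpins with an identical mature sequence, on chromosomes 1, 5 and 15, in the host genes C1orf61 (intron), LINC00461 (exon) and MIR9-3HG (intron), and its reads cannot be assigned to one of them.

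The number of reads assigned to listed miRNAs was 701885, 7274329 and 767810 in SMARCA4 replicates 1, 2 and 3, and ranged from 881370 to 1079944 in the empty vector libraries. Values are given as the authors' normalized read counts per mature miRNA, not divided by length. SMARCA4 replicate 2 was 8.33 times as deep as the mean of the other 5 libraries. Its normalized read counts also summed to the largest total, 3073322. Totals of the remaining libraries ran from 1661870 (empty vector replicate 1) to 1835229 (SMARCA4 replicate 1). A given share of reads therefore had its largest normalized value in SMARCA4 replicate 2. Where no read was counted, up to 3 reads remain possible, and these are worth 1.27 normalized read counts in that library and between 4.91 and 7.84 in the others. Epithelial miRNAs fixed as markers were detected (6 of 7 listed, with a summed level of 425 to 623 in the SMARCA4 libraries and 356 to 677 in the empty vector libraries), and the muscle miRNAs miR-1-3p and miR-133a-3p were at 0 in every library. Of the 6 epithelial miRNAs 4 were higher and 2 lower with SMARCA4. By limma miR-141-3p and miR-203a-3p rose, while the most abundant, miR-200b-3p, was at 190 ± 51.8 with SMARCA4 and 422 ± 123 with empty vector (SD, n = 3 each; log2 fold change −1.14, limma adjusted p = 0.109). miR-203a-3p was at 36.6, 40.1 and 42.5 in SMARCA4 replicates 1, 2 and 3. In empty vector replicates 1, 2 and 3 it was at 3.77, 5.71 and 4.91, not above the value of 3 reads.

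All 7 miRNAs had a higher mean with SMARCA4, but none passed the test over all miRNAs. By limma on log2(value + 1), 0 of 7 had an adjusted p under 0.05 and 3 (miR-147b, miR-212-3p and miR-146b-5p) had an unadjusted p under 0.05. In the same fit 1.41% of the 637 miRNAs tested were called, 0.942% as higher with SMARCA4, and 11.3% were higher at an unadjusted p under 0.05. On the recovered reads edgeR called 0 of the 7 and 1.26% of all tested miRNAs. DESeq2 called 0 of the 6 for which it gave an adjusted p (for miR-155-5p it gave none) and 10.4% of all that had one. In the limma fit the median log2 fold change of the 7 was 1.17, against −0.05 over all tested miRNAs, and 48.4% of all tested miRNAs had a positive value. The groups did not overlap, with SMARCA4 higher, for 5 of the 7 and for 15.9% of all tested miRNAs. With libraries rescaled to the same total, 3 of the 7 (miR-146b-5p, miR-212-3p and miR-147b) and 9.26% of all did not overlap, and with median-of-ratios scaling the same 3 and 15.5% of all did not overlap. The summed level of the 7 was 1200, 2016 and 1457 in SMARCA4 replicates 1, 2 and 3, and 786, 647 and 961 in empty vector replicates 1, 2 and 3. As a share of assigned reads (with exact Clopper-Pearson 95% intervals) it was 0.0654% (0.0596 to 0.0717), 0.0656% (0.0637 to 0.0675) and 0.0804% (0.0741 to 0.0870) in SMARCA4 replicates 1, 2 and 3. In empty vector replicates 1, 2 and 3 this share was 0.0473% (0.0429 to 0.0521), 0.0364% (0.0326 to 0.0405) and 0.0544% (0.0501 to 0.0590). As a share SMARCA4 replicate 2 was thus close to replicate 1, with overlapping intervals, and the groups did not overlap on either scale.

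**Figure D1:**
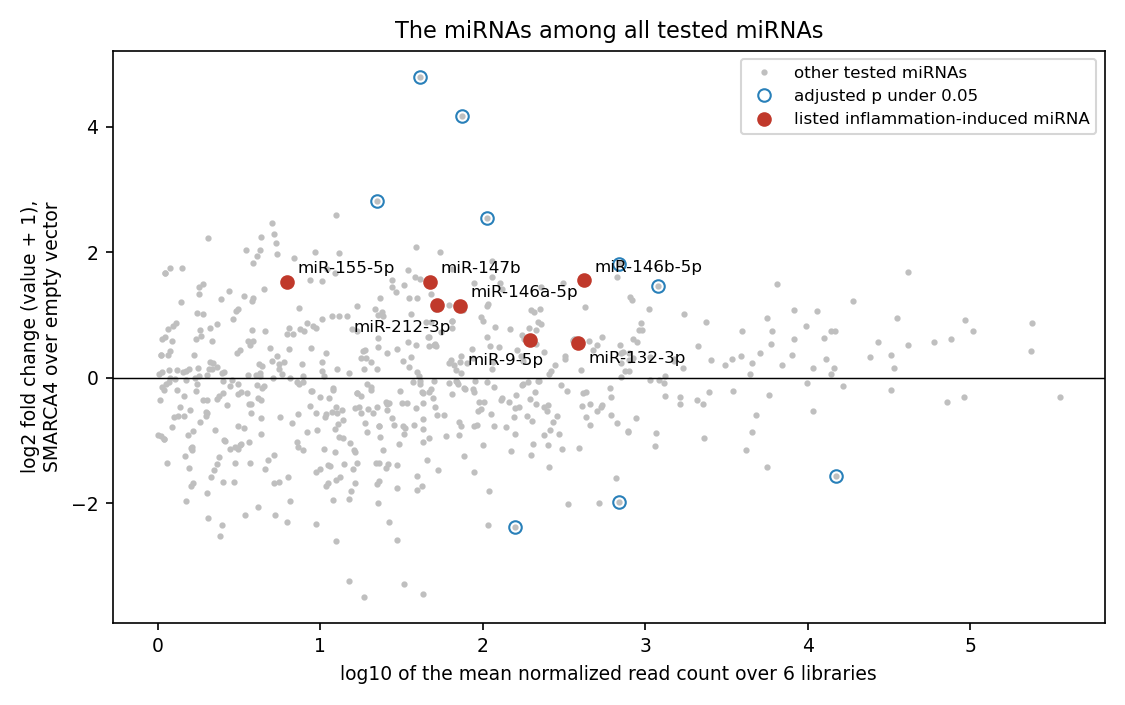
Log2 fold change (SMARCA4 over empty vector, of value + 1) against the log10 mean normalized read count over 6 libraries for the 637 tested miRNAs (grey), with the 7 inflammation-induced miRNAs in red and the 9 miRNAs at an adjusted p under 0.05 circled. The 7 lie above 0, between 0.56 and 1.56, and none of them is circled.

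The most abundant of the 7 in the SMARCA4 libraries was miR-146b-5p, and in the empty vector libraries miR-132-3p. With SMARCA4 the order of the means was miR-146b-5p, miR-132-3p, miR-9-5p, miR-146a-5p, miR-212-3p, miR-147b and miR-155-5p. In empty vector cells it was the same except that miR-132-3p stood above miR-146b-5p. In both groups the ranges of neighbours in this order overlapped, except between miR-9-5p and miR-146a-5p and between miR-147b and miR-155-5p. Even the most abundant was a minor component of the library: miR-146b-5p was 97th of the 787 by its mean with SMARCA4 and 148th in empty vector cells. Adapter ligation differs between miRNAs, so this order is one of reads and need not be one of molecules.

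**Figure D2:**
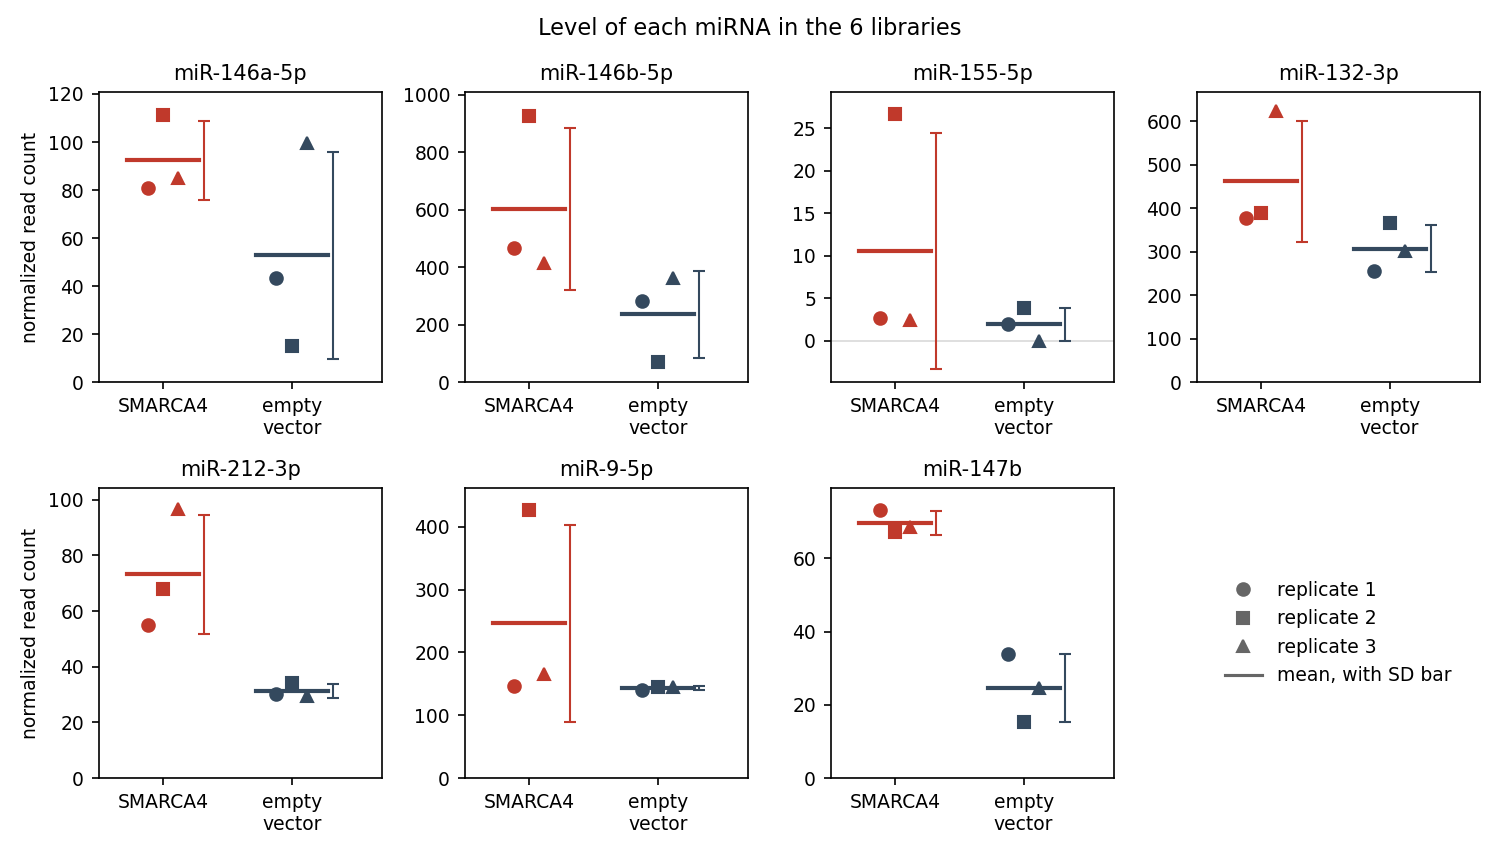
Normalized read count of each of the 7 miRNAs in the 3 SMARCA4 libraries (red, left) and the 3 empty vector libraries (dark, right), with the mean as a line, the SD as a bar and the replicate number as the symbol. On the deposited scale the SMARCA4 values of miR-147b lie between 67.2 and 73.2 (21.9 to 39.9 CPM, relative to the total over the listed miRNAs of the library), and those of miR-155-5p and miR-9-5p are high in replicate 2 alone.

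The miR-146 pair represents the negative feedback on Toll-like receptor signalling. miR-146b-5p was at 465, 927 and 416 normalized read counts in SMARCA4 replicates 1, 2 and 3, and at 281, 68.5 and 361 in empty vector replicates 1, 2 and 3. SMARCA4 replicate 2 was the highest library and empty vector replicate 2 the lowest, and the groups did not overlap. The means were 603 ± 282 with SMARCA4 and 237 ± 151 with empty vector (SD, n = 3 each), a log2 fold change of 1.56 (SE 0.60, 95% interval 0.19 to 2.92, limma adjusted p = 0.174). Without empty vector replicate 2 the log2 fold change was 0.82, and with limma array weights it was 0.87. Rescaled to equal library totals it was 1.23 (limma unadjusted p = 0.0566 and adjusted p = 0.224). As CPM the gap was narrow, with miR-146b-5p at 254, 302 and 229 in SMARCA4 replicates 1, 2 and 3. In empty vector replicates 1, 2 and 3 it was at 169, 38.6 and 205 CPM.

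miR-146a-5p, the form best known from monocytes and lymphocytes, was at 81.1, 111 and 85.0 normalized read counts in SMARCA4 replicates 1, 2 and 3, and at 43.4, 15.2 and 99.7 in empty vector replicates 1, 2 and 3. On the deposited scale the groups overlapped, since empty vector replicate 3 lay above 2 of the SMARCA4 libraries. The means were 92.4 ± 16.3 with SMARCA4 and 52.8 ± 43.0 with empty vector (SD, n = 3 each), with a log2 fold change of 1.15 (SE 0.61, 95% interval −0.22 to 2.52, limma adjusted p = 0.285). The value rested on the spread of the empty vector libraries: it was 0.47 when empty vector replicate 2 was left out and 1.79 when empty vector replicate 3 was. Only 8 reads of miR-146a-5p were counted in empty vector replicate 2, against 23 and 61 in the other empty vector libraries. In SMARCA4 replicates 1, 2 and 3 its reads numbered 31, 263 and 36. As CPM miR-146a-5p was at 44.2, 36.2 and 46.9 in SMARCA4 replicates 1, 2 and 3. In empty vector replicates 1, 2 and 3 it was at 26.1, 8.57 and 56.5 CPM, so empty vector replicate 3 lay above every SMARCA4 library. Rescaled to equal library totals the log2 fold change was 0.83 (limma adjusted p = 0.439).

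Because the 2 forms differ at only 2 positions besides their length, their sum was also compared. It does not depend on how reads were split between them. Summed miR-146a-5p and miR-146b-5p stood at 546, 1038 and 501 normalized read counts in SMARCA4 replicates 1, 2 and 3, and at 324, 83.7 and 461 in empty vector replicates 1, 2 and 3. The groups did not overlap, with a difference of 1.50 in log2(sum + 1) and p = 0.1 in a two-sided exact permutation test, the smallest that 3 libraries against 3 can give (0.15 adjusted over 3 such values). Without empty vector replicate 2 the difference was 0.76. Rescaled to equal library totals it was 1.17 (p = 0.1 in the same permutation test). Most of the sum was miR-146b-5p in every library, so it largely repeats that miRNA, whose gap was narrow as CPM. The ratio of miR-146b-5p over miR-146a-5p was 5.74, 8.35 and 4.89 with SMARCA4 and 6.48, 4.50 and 3.62 with empty vector. These ratios overlapped (exact two-sided permutation p = 0.3 on the log2 ratio, 0.3 adjusted over the 3).

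The pair of miR-132 and miR-212 is transcribed as a unit and is known as a target of CREB as well as an early responder to Toll-like receptor ligands. miR-212-3p was at 54.9, 68.0 and 96.8 normalized read counts in SMARCA4 replicates 1, 2 and 3, and at 30.2, 34.2 and 29.4 in empty vector replicates 1, 2 and 3. Every SMARCA4 library lay above every empty vector library. The means were 73.2 ± 21.4 with SMARCA4 and 31.3 ± 2.59 with empty vector (SD, n = 3 each), which gave a log2 fold change of 1.17 (SE 0.38, 95% interval 0.31 to 2.02, limma adjusted p = 0.111). With any 1 library left out this value stayed between 0.95 and 1.35. Rescaled to equal library totals it was 0.85 (limma adjusted p = 0.276), and the groups still did not overlap. As CPM miR-212-3p was at 29.9, 22.1 and 53.4 in SMARCA4 replicates 1, 2 and 3. In empty vector replicates 1, 2 and 3 it was at 18.2, 19.3 and 16.7 CPM. Its reads numbered 21, 161 and 41 in SMARCA4 replicates 1, 2 and 3, and 16, 18 and 18 in the empty vector libraries.

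miR-132-3p, the more abundant of the pair, was at 377, 388 and 623 normalized read counts in SMARCA4 replicates 1, 2 and 3, and at 256, 365 and 301 in empty vector replicates 1, 2 and 3. The groups did not overlap, but the lowest SMARCA4 library was close to the highest empty vector library. The means were 463 ± 139 with SMARCA4 and 307 ± 54.7 with empty vector (SD, n = 3 each), for a log2 fold change of 0.56 (SE 0.32, 95% interval −0.15 to 1.28, limma adjusted p = 0.317). SMARCA4 replicate 3 carried much of it, as the log2 fold change was 0.33 without that library. Rescaled to equal library totals it was 0.24, and the groups overlapped.

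The observed log2 fold changes of the pair were 0.56 for miR-132-3p and 1.17 for miR-212-3p. With 3 libraries per group the test below cannot settle whether they differ. miR-212-3p had 16, 18 and 18 reads in empty vector replicates 1, 2 and 3 and 21 in SMARCA4 replicate 1, so counting error enters the ratio. The ratio of miR-132-3p over miR-212-3p was 6.86, 5.71 and 6.44 in SMARCA4 replicates 1, 2 and 3, and 8.50, 10.7 and 10.2 in empty vector replicates 1, 2 and 3. The log2 ratio was 2.64 ± 0.13 with SMARCA4 and 3.24 ± 0.18 with empty vector (SD, n = 3 each), a difference of −0.60. The groups did not overlap, with p = 0.1 in a two-sided exact permutation test, the smallest value this design allows (0.15 adjusted over 3). With another pseudocount, another scaling or any 1 library left out the difference stayed between −0.70 and −0.52. The ratio does not depend on the scaling between libraries apart from the pseudocount.

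**Figure D3:**
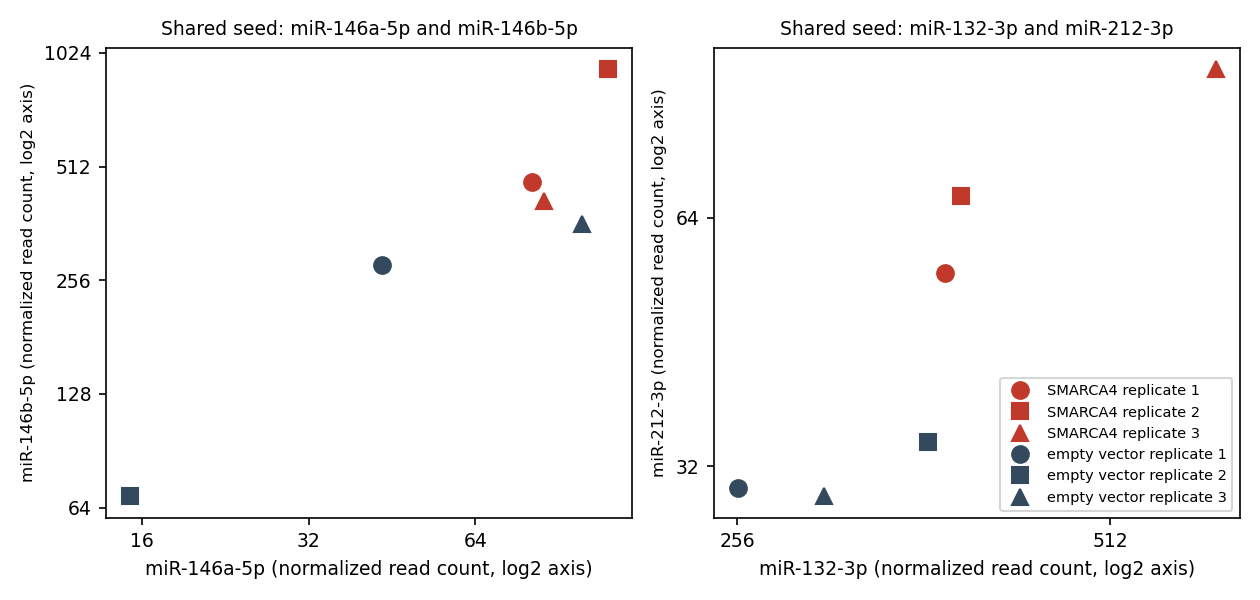
Normalized read counts of the 2 seed-sharing pairs plotted against each other on log2 axes, miR-146a-5p against miR-146b-5p (left panel) and miR-132-3p against miR-212-3p (right panel), with SMARCA4 libraries in red and empty vector libraries dark. In the right panel the SMARCA4 libraries lie above the empty vector libraries in miR-212-3p (54.9 to 96.8 against 29.4 to 34.2), and in the left panel empty vector replicate 2 stands apart at the low end of both miRNAs.

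miR-147b, a Toll-like receptor-induced miRNA, had the smallest p of the 7. It was at 73.2, 67.2 and 68.5 normalized read counts in SMARCA4 replicates 1, 2 and 3, and at 33.9, 15.2 and 24.5 in empty vector replicates 1, 2 and 3. Every SMARCA4 library lay above every empty vector library. As CPM the gap was narrow, with 39.9, 21.9 and 37.8 CPM in SMARCA4 replicates 1, 2 and 3, and 20.4, 8.57 and 13.9 CPM in empty vector replicates 1, 2 and 3. With libraries rescaled to the same total the log2 fold change was 1.22 (limma adjusted p = 0.176). The means were 69.6 ± 3.18 with SMARCA4 and 24.6 ± 9.36 with empty vector (SD, n = 3 each), with a log2 fold change of 1.53 (SE 0.41, 95% interval 0.60 to 2.47, limma unadjusted p = 0.00469 and adjusted p = 0.083). The reads were 28, 159 and 29 in SMARCA4 replicates 1, 2 and 3, and 18, 8 and 15 in empty vector replicates 1, 2 and 3. Leaving out single libraries gave log2 fold changes between 1.24 and 1.79 and adjusted p-values between 0.068 and 0.207.

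miR-155-5p, the proinflammatory miRNA of activated lymphocytes and macrophages, was close to the detection limit. It had 1, 63 and 1 reads in SMARCA4 replicates 1, 2 and 3, and 1, 2 and 0 reads in empty vector replicates 1, 2 and 3. In normalized read counts this was 2.61, 26.6 and 2.36 with SMARCA4 and 1.89, 3.80 and 0 with empty vector. Only the value of SMARCA4 replicate 2 exceeded that of 3 reads in its library, and the groups overlapped. The log2 fold change of 1.53 (SE 0.96, 95% interval −0.64 to 3.71, limma adjusted p = 0.366) rested on that library and was 0.54 without it and 0.90 without empty vector replicate 3. With a pseudocount of 5 it was 0.85, and by edgeR and DESeq2 on the recovered reads 2.74 and 2.54. In the other 5 libraries miR-155-5p was not measurable at this depth, so a difference between groups could not be assessed without SMARCA4 replicate 2.

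miR-9-5p, which is best known from neurons and represses NFKB1, was at 146.4, 427.1 and 165.3 normalized read counts in SMARCA4 replicates 1, 2 and 3, and at 139.5, 144.5 and 145.5 in empty vector replicates 1, 2 and 3. Outside SMARCA4 replicate 2 the values were nearly level across the libraries, although no SMARCA4 library lay below an empty vector library. The means were 246 ± 157 with SMARCA4 and 143 ± 3.21 with empty vector (SD, n = 3 each), with a log2 fold change of 0.60 (SE 0.43, 95% interval −0.36 to 1.56, limma adjusted p = 0.421). Without SMARCA4 replicate 2 it was 0.12. Rescaled to equal library totals it was 0.28, and the groups overlapped. Of 5 neuronal markers 4 were listed and 3 tested, of which 1 was higher and 2 lower with SMARCA4 and 0 passed the limma test. The tested markers included miR-9-3p, the other arm of the miR-9 hairpins, with 1 to 5 reads per library. Their median log2 fold change of −0.32 was the value of miR-9-3p itself. miR-138-5p was at 2303 ± 896 with SMARCA4 and 5992 ± 5140 with empty vector, and miR-128-3p at 1630 ± 182 with SMARCA4 and 1387 ± 393 with empty vector (SD, n = 3 each). The empty vector mean of miR-138-5p rested on replicate 2, with 3141, 11926 and 2909 in replicates 1, 2 and 3. With SMARCA4 miR-138-5p was at 2738, 1272 and 2899. miR-124-3p was not listed in the table.

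**Figure D4:**
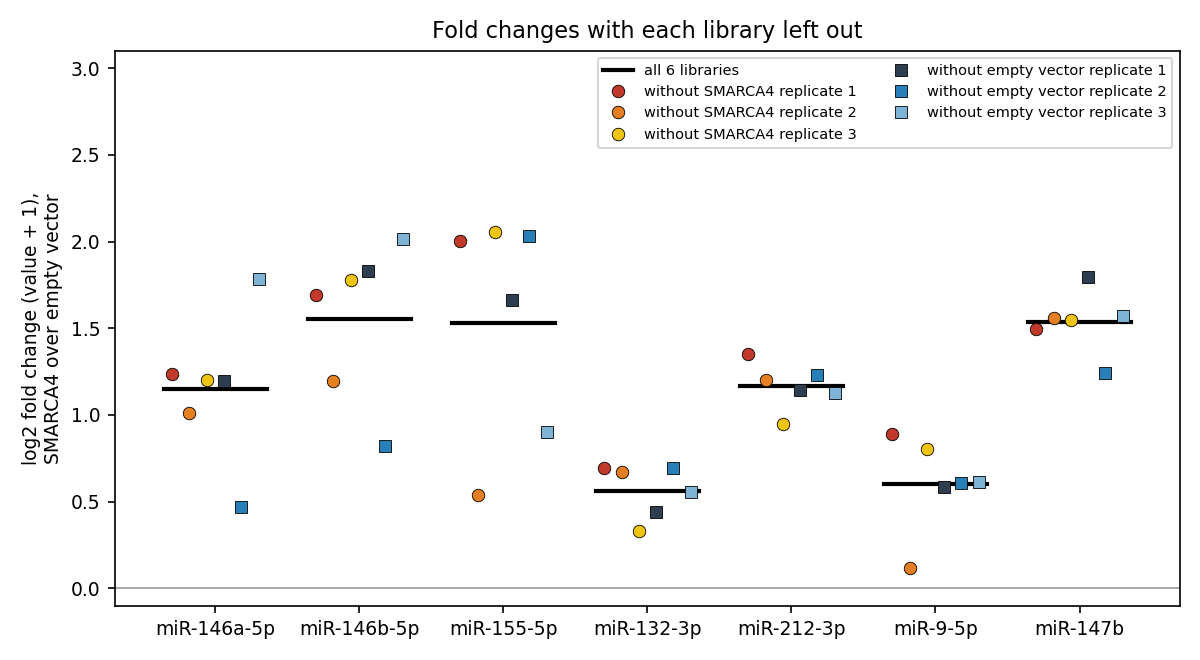
Log2 fold change (SMARCA4 over empty vector, of value + 1) of each of the 7 miRNAs with all 6 libraries (line) and with each library left out in turn (circles for SMARCA4 libraries left out, squares for empty vector libraries). All stay above 0, and the values of miR-155-5p and miR-9-5p are 0.54 and 0.12 without SMARCA4 replicate 2, while those of miR-212-3p and miR-147b stay between 0.95 and 1.79.

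The other arms of the same hairpins are made from the same precursors. In the hairpins below, from RefSeq (GRCh38.p14) and written 5′ to 3′, capitals mark the 5p and then the 3p arm.
MIR146B: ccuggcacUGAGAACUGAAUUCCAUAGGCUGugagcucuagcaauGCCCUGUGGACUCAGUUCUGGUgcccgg
MIR132: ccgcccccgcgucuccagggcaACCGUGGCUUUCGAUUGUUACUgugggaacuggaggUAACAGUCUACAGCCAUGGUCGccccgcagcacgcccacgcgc
MIR212: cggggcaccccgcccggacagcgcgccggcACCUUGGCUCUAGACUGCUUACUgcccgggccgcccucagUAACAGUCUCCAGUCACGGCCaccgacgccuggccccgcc
Of the other arms, miR-146b-3p, miR-132-5p, miR-212-5p and miR-9-3p were listed, each at a lower level than its partner in every library. None had groups that did not overlap, and none passed the limma test.

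miR-212-5p was at 26.1, 14.4 and 16.5 normalized read counts in SMARCA4 replicates 1, 2 and 3, and at 11.3, 3.80 and 14.7 in empty vector replicates 1, 2 and 3. Its log2 fold change of 0.99 (95% interval −0.32 to 2.31, limma adjusted p = 0.337) lay near that of miR-212-3p. miR-132-5p was at 31.4, 12.7 and 7.08 with SMARCA4 and at 30.2, 11.4 and 24.5 with empty vector, so its log2 fold change had the opposite sign to that of miR-132-3p (−0.49, 95% interval −1.90 to 0.93, limma adjusted p = 0.677). miR-146b-3p, with 1 to 26 reads per library, had a log2 fold change of 0.47 (95% interval −1.06 to 1.99, limma adjusted p = 0.710). miR-9-3p, with 1 to 5 reads, had one of −0.32 (95% interval −1.96 to 1.33, limma adjusted p = 0.836). The log2 ratio of the named arm over the other arm did not separate the groups for any of the 4 hairpins, with exact two-sided permutation p-values between 0.5 and 0.9, all 0.9 after adjustment over the 4.

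**Figure D5:**
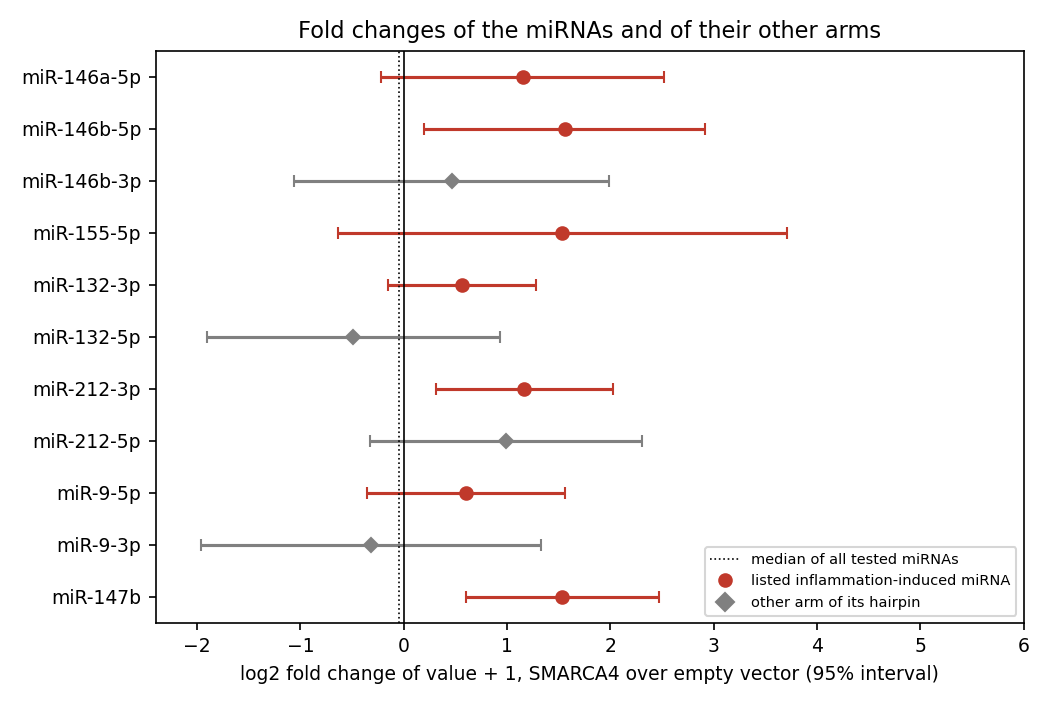
Log2 fold change (SMARCA4 over empty vector, of value + 1) with its 95% interval from limma for the 7 miRNAs (red circles) and the 4 listed other arms of their hairpins (grey diamonds), with the median of all tested miRNAs as a dotted line at −0.05. The intervals of miR-146b-5p, miR-212-3p and miR-147b lie above 0, and those of miR-132-5p and miR-9-3p have centres below 0.

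Across the 6 libraries the miRNAs whose log2 values followed each member most closely, among 421 with a mean of at least 10, were found by Pearson's r as a description. The libraries share a group structure and 1 of them is far deeper, so likeness over these 6 points is weak information. miR-132-3p was followed most closely by its neighbour miR-212-3p (r = 0.90), then by miR-503-5p and miR-324-5p (r = 0.85 each). miR-212-3p was followed by miR-203a-3p, miR-6840-5p and let-7b-5p (r = 0.94, 0.94 and 0.92). For miR-146b-5p the closest were miR-425-5p, miR-146a-5p and miR-192-5p (r = 0.96, 0.94 and 0.93). For miR-146a-5p they were miR-4671-3p, miR-183-5p and miR-191-5p (r = 0.98, 0.97 and 0.96). miR-147b was followed by miR-1247-5p, miR-141-3p and miR-32-5p (r = 0.99, 0.97 and 0.96). The closest to miR-9-5p were miR-196a-5p, let-7c-5p and let-7i-5p (r = 1.00, 1.00 and 0.99), and those to miR-155-5p were miR-28-5p, miR-27b-5p and miR-3615 (r = 0.98, 0.96 and 0.96). Among the 7 themselves, r was 0.87 between miR-155-5p and miR-9-5p, the 2 that were high in SMARCA4 replicate 2 alone, and 0.06 between miR-155-5p and miR-146a-5p.

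Other miRNAs that act on or respond to Toll-like receptor, NF-kB or cytokine signalling showed no common direction. Of 22 such miRNAs 20 were listed and 18 tested, of which 11 were higher and 7 lower with SMARCA4 and 0 passed the limma test in either direction. Their median log2 fold change was 0.12, beside −0.05 over all tested miRNAs. The most abundant was miR-21-5p, an abundant miRNA of tumour cells, at 323492 ± 124236 normalized read counts with SMARCA4 and 387595 ± 90924 with empty vector (SD, n = 3 each; log2 fold change −0.30, limma adjusted p = 0.645). miR-10a-5p, which restrains NF-kB signalling in endothelium, was at 120156 ± 9143 with SMARCA4 and 65725 ± 19824 with empty vector (SD, n = 3 each; log2 fold change 0.92, limma adjusted p = 0.124).

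Blood cells carry much miR-155-5p and miR-146a-5p, and their markers were read beside them. Of 8 blood cell miRNAs 3 were listed (miR-486-5p, miR-142-5p and miR-150-5p), and miR-142-3p, miR-223-3p and miR-451a were not listed. The summed level of the 3 was 7962 to 14458 normalized read counts in the SMARCA4 libraries and 5621 to 7213 in the empty vector libraries, mostly miR-486-5p, an erythroid miRNA also expressed elsewhere. The white cell miRNA miR-142-5p was at 54.9 ± 30.3 with SMARCA4 and 21.3 ± 19.7 with empty vector (SD, n = 3 each; log2 fold change 1.60, limma adjusted p = 0.216). Their part in the levels of the 7 miRNAs was not tested.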

How the data were processed

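Small RNA of 6 A549 cultures was sequenced after TruSeq small RNA library preparation, per the labels' protocols. The submitters' processing notes name bcl2fastq 2.18.0.12 and the build GRCh38. Not given in the sources used here are the trimmer, aligner, counting program, miRNA annotation and assignment of near-identical reads. The authors deposited a normalized signal per mature miRNA (TMM in the table's name), a read count times 1 factor per library. Within 1e-06 reads, 100% of the values were whole multiples of the smallest, so reads were recovered. No molecular identifiers are mentioned, so limits from 3 reads cover counting error only.

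Sample titles gave the groups and replicate numbers. Replicates are independent and biological per the series' design text. No 2 libraries agreed within sampling noise (lowest chi-square per degree of freedom 6.61), which cannot tell biological from technical replicates. limma 3.58.1 (R 4.3.3) was fitted to log2(value + 1) with a mean-variance trend and no term but the group. It covered the 637 miRNAs averaging at least 1, which included all 7 members, 6 of them with a mean of at least 10. The other 150 were not tested. p-values were adjusted by Benjamini and Hochberg over all tested miRNAs (threshold 0.05). This scale understates fold changes of scarce miRNAs. The fit was tested on simulated data. Alternatives were another pseudocount (0.5 or 5), filter (none or 10), scaling (same total, median of ratios, quantile), no trend, array weights, a replicate term, each library left out, and edgeR 4.0.16 and DESeq2 1.42.0 on recovered reads.

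Members, lists and alternatives were chosen with earlier results of these data known. All listed members and other arms were named, with the 3 closest miRNAs by correlation and the 2 most abundant and any called members of the context list. Other names were chosen after their values were seen. Sequences, arms and the hairpin spans of MIR146B, MIR132 and MIR212 come from RefSeq (GRCh38.p14). The other hairpin spans and the host genes come from GENCODE 29.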

Additional observations from a re-analysis of the deposited data

How the results depend on the processing

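The 7 log2 fold changes stayed positive under all 18 alternatives (17 for miR-155-5p, which a minimum mean of 10 removed). With array weights miR-212-3p and miR-147b passed the limma test (log2 fold change 1.23, adjusted p = 0.0395, and 1.36, adjusted p = 0.0346), whereas their adjusted p over all alternatives ranged from 0.0395 to 0.280 and from 0.0346 to 0.207; no other alternative called any of the 7. Array weights also gave 0.70 for miR-146a-5p and 0.25 for miR-9-5p. Left-out libraries gave 0.47 to 1.79 for miR-146a-5p, 0.82 to 2.01 for miR-146b-5p, 0.54 to 2.06 for miR-155-5p, 0.33 to 0.69 for miR-132-3p and 0.12 to 0.89 for miR-9-5p. Of all tested miRNAs 9 were called (6 higher, 3 lower), 23 without a filter, 90 with array weights, 44 by DESeq2 (which left the adjusted p of miR-155-5p undefined), between 0 and 41 with a library left out, and 4 higher and 8 lower with the same total, under which the median over all tested miRNAs was −0.31 on the log2 scale. The members whose groups did not overlap numbered 3 with the same total (9.26% of all tested miRNAs) and 3 with median-of-ratios scaling (15.5%), and 5 to 6 with a library left out (18.2% to 20.6%), beside 5 (15.9%) as reported; these alternatives were added after seeing the data. The arm ratio difference of miR-9 ranged from −0.13 to 1.52 and that of miR-212 from −0.21 to 0.75 with a library left out. The cause of these changes was not tested.

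Replicate numbers were not found to pair the libraries (deviations of same-numbered libraries correlated at 0.07, 0.09 and 0.01). With a replicate block the whole-table count was 13, and 0 of the 7 passed, with adjusted p from 0.0945 for miR-147b to 0.326 for miR-9-5p. Depth limits miR-155-5p, miR-9-3p and miR-146b-3p most.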
